A study of Mus musculus with 6 samples.

Results

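The aquaporins of the nephron were followed over the day in mouse kidney as 9 genes, Aqp1, Aqp2, Aqp3, Aqp4, Aqp5, Aqp6, Aqp7, Aqp8 and Aqp11. They were chosen by gene symbol, and all 20 transcript lines with these symbols were taken, out of 51803 symbols and 128603 transcript lines in the table. Total RNA of kidneys of male BALB/c mice, an inbred albino strain, was sequenced at 8 weeks of age under a light/dark cycle. Kidneys were taken every 4 h, from ZT0 (zeitgeber time, hours from lights on) to ZT20, and each of the 6 times has 1 library; the labels name no other treatment or genotype. The question behind the series is which renal transcripts are rhythmic over the day. With a single library per time, no level below has a spread between replicates, and differences between mice cannot be told apart from differences between times. In whole kidney, fewer cells of a type and less RNA per cell cannot be told apart either.

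Aquaporins are membrane channels that let water cross cells, and some of them, the aquaglyceroporins, also pass glycerol. AQP1 carries the constitutive water flow of the proximal tubule and of the thin descending limb. In the collecting duct, vasopressin acts through its V2 receptor and cAMP to move AQP2 to the apical membrane of principal cells and to raise Aqp2 transcription, and AQP3 and AQP4 let the water leave through the basolateral membrane.

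All levels are in FPKM, which divides fragments by transcript length and by library size and so allows genes to be compared. The level of a gene is the sum over its transcripts. A wave of 24 h was fitted by limma to log2(FPKM + 1) of all 12709 genes whose mean reached 1 FPKM. Its amplitude runs from mean to peak on that log2 scale. The error (SE) reflects how far single libraries lay from the curve, with this scatter moderated by limma towards that of other genes. For Aqp4 the SE was 0.192, and 0.273 by ordinary least squares, which uses the gene's own scatter alone.

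The genes with the smallest p in that fit were Aqp2, Aqp1 and Aqp6. The 250 bases before the RefSeq start of each (build GRCm38.p6) are shown with those of Aqp8, whose low level was highest at ZT0 and lowest at ZT12. Capitals mark the E-box CACGTG, the sequence bound by CLOCK and BMAL1, and the half-site TGACG of the cAMP response element, which on the opposite strand reads CGTCA. The windows are chr15:99578806-99579055, chr6:55336049-55336298, chr15:99600950-99601199 and chr7:123462044-123462293, all on the forward strand.
Aqp2: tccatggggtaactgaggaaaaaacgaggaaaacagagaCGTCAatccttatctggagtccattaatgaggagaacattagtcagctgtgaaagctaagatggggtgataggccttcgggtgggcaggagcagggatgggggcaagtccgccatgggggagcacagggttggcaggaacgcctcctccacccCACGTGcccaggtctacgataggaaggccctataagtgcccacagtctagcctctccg
Aqp1: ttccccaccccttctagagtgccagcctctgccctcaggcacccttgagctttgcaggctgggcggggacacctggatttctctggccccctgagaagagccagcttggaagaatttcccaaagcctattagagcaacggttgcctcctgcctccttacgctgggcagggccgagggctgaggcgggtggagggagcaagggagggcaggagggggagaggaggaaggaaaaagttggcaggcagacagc
Aqp6: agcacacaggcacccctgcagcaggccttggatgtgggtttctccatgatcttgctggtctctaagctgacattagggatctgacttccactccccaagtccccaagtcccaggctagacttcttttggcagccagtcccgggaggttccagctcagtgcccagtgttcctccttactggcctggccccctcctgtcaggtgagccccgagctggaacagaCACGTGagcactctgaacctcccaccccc
Aqp8: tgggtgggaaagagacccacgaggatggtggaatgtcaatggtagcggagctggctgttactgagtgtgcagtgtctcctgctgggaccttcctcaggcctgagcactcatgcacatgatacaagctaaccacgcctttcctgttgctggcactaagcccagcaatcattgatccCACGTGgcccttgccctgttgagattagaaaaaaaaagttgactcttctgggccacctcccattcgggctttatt

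The RefSeq table held such windows for 8 of the 9 genes, all but Aqp4. The palindrome CACGTG stood in the windows of 4 of them, at -58 to -53 from the start in Aqp2, at -29 to -24 in Aqp6, at -75 to -70 in Aqp8 and at -87 to -82 in Aqp5. Over all symbols with a window, 6.86% held it. Aqp2 alone of the 8 held the half-site TGACG, at -211 to -207 on the opposite strand, where 19.8% of all symbols did on either strand. The full cAMP response element TGACGTCA, the D-box TTANGTAA and the REV-ERB and ROR half-site TAGGTCA were in 0 of the 8, and in 1.77%, 2.44% and 2.55% of all symbols. TATAAA stood in the window of Aqp3 at -29 to -24, against 14.3% of all symbols. All motifs were searched on both strands. The table's starts of Aqp1 and Aqp6 lie upstream of their GENCODE starts. That of Aqp5 lies downstream of both its GENCODE starts, so its CACGTG falls inside the first exon of both annotated transcripts. These are matches of letters in windows of 250 bases and say nothing of binding.

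By mean level, Aqp1 stood first with 291 FPKM and made up 50.4% of all aquaporin FPKM, and Aqp2 (140 FPKM, 24.2%) and Aqp3 (76.2 FPKM, 13.2%) followed. Aqp11 averaged 24.6 FPKM, Aqp6 16.9 FPKM, Aqp7 16.7 FPKM, Aqp4 12.2 FPKM, Aqp8 0.508 FPKM and Aqp5 0.0199 FPKM. The ranges over the day of Aqp1 and Aqp2 did not overlap, nor did those of Aqp3 and Aqp11. Aqp2 and Aqp3 overlapped in range, although Aqp2 was higher than Aqp3 within each of the 6 libraries. The ranges of Aqp11 and Aqp6 overlapped slightly, and Aqp6, Aqp7 and Aqp4 could not be ordered by their ranges. The summed aquaporin FPKM was 535, 439, 542, 668, 647 and 634 from ZT0 to ZT20, lowest at ZT4 and highest at ZT12. The share of Aqp2 in that sum was 18.7% at ZT4 and 28.0% at ZT20, while the share of Aqp3 was 17.1% at ZT4 and 10.8% at ZT20.

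**Figure D1:**
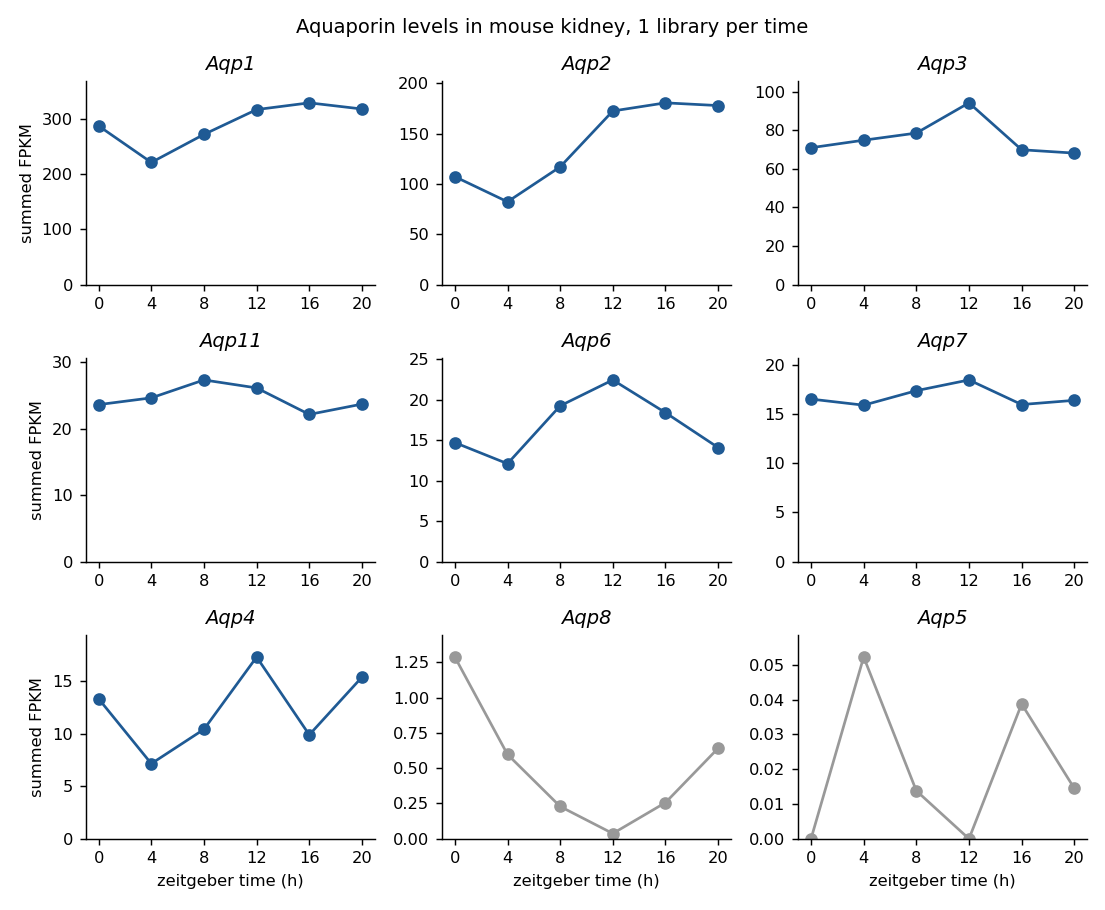
Summed FPKM of each aquaporin (vertical axes, linear, from 0, scaled per gene) against zeitgeber time in hours, 1 point per library; grey panels mark genes under a mean of 1 FPKM. Aqp1 and Aqp2 sit high from ZT12 to ZT20 and lowest at ZT4, Aqp6 and Aqp3 are highest at ZT12, and Aqp7 moves little.

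Of the 9 genes, 7 passed the minimum mean of 1 FPKM, and 0 of these 7 had a Benjamini-Hochberg adjusted p under 0.05 for a 24 h wave (limma). The background was 36 of 12709 genes (0.283%). At an unadjusted p under 0.05 stood 3 of the 7 (Aqp1, Aqp2 and Aqp6), where 19.1% of all genes tested did. By ordinary least squares the unadjusted count was 1 of 7 (Aqp2), against 1661 of 12709 genes. The adjusted count was 0 of 7, against 2 of 12709 genes. With robust moderation in limma 1 gene of the 7, Aqp2, passed (adjusted p = 0.0451), against 66 of 12709 genes. The median amplitude was 0.252 over the 7 genes and 0.128 over all genes tested, and the median ratio of the highest to the lowest library was 1.49 and 1.36.

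Transcripts were fitted separately under the same minimum, and 8 of the 20 aquaporin lines passed that filter. None of these 8 lines had an adjusted p under 0.05 (limma), nor did any of the 21596 lines tested (0%), while 4 of the 8 had an unadjusted p under 0.05, against 15.2% of all lines. Ordinary least squares gave 0 aquaporin lines at adjusted and 2 at unadjusted p. Over all 21596 lines it gave 2 at adjusted and 2464 at unadjusted p. The 4 lines were those of Aqp1, Aqp2 and Aqp6, each the single line of its gene, and the exon-skipping transcript of Aqp11.

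**Figure D2:**
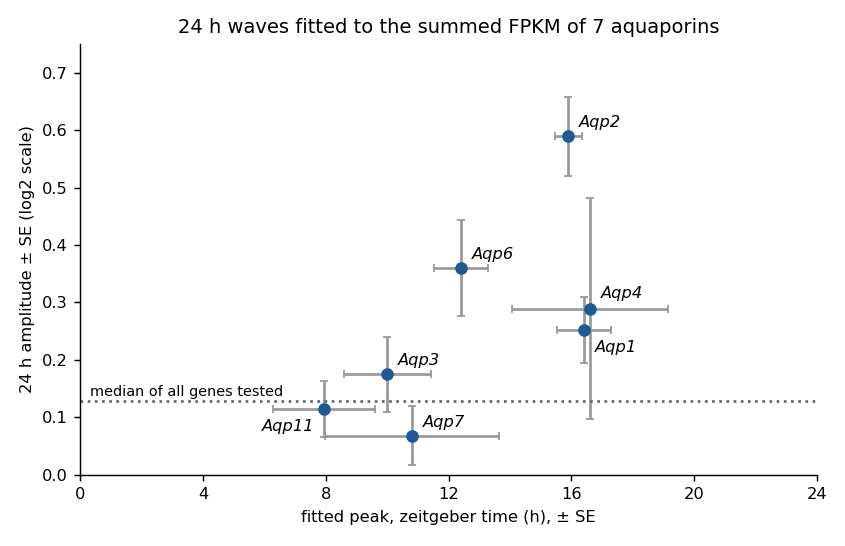
Fitted 24 h amplitude (vertical axis, log2 scale, with SE) against fitted peak time (horizontal axis, zeitgeber hours, with SE) of the 7 aquaporin genes tested; the dotted line is the median amplitude of all genes tested. Aqp2 stands highest at 0.59, Aqp6 (0.36), Aqp4 (0.29) and Aqp1 (0.25) follow, and the wide bars of Aqp4 and Aqp7 show peaks that are poorly fixed.

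Aqp2, the vasopressin-regulated water channel of principal cells, lies at chr15:99579055-99584547 on the forward strand (GENCODE M21, GRCm38), and its transcript has 4 exons. The gene was at 107, 82.3, 117, 172, 181 and 178 FPKM from ZT0 to ZT20. The libraries at ZT12, ZT16 and ZT20 were all above those at ZT0, ZT4 and ZT8, and the highest was 2.19 times the lowest. How many of all genes tested split in this way, as Aqp1 and Avpr2 below also do, was not counted. The fitted amplitude was 0.59 ± 0.07 (SE) with a peak at ZT15.9 ± 0.447 h, larger than that of 98.2% of all genes tested. This did not pass over all genes (limma adjusted p = 0.0646, unadjusted p = 0.00032). In the exact permutation test over the 60 circular orders of the libraries, 2 orders gave as close a cosine as the labelled one or closer, the labelled one included (p = 0.0333, smallest possible 0.0167).

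The median of the principal cell markers varied less over the day than Aqp2 did. The 12 marker genes summed to between 224 and 269 FPKM, with a median deviation between -0.12 at ZT4 and 0.12 at ZT12 on the log2 scale, where Aqp2 stood at -0.69 at ZT4 and 0.43 at ZT16. After the markers' median was subtracted, the range of Aqp2 over the libraries was 1.04. A median over genes of unlike pattern varies less than single genes do. The part of principal cell content in the Aqp2 levels was not tested. Avpr2, one of the 12 markers, ranged between 5.88 and 10.0 FPKM. Scnn1a, an epithelial sodium channel subunit, was at 21.4, 18.7, 25.5, 29.6, 27.4 and 24.9 FPKM from ZT0 to ZT20, lowest at ZT4 as Aqp2 was and highest at ZT12 (amplitude 0.28, limma adjusted p = 0.155, unadjusted p = 0.00613). Fxyd4 and Gata3 were also lowest at ZT4 (14.2 and 3.85 FPKM) and were highest at ZT8 (23.5 and 5.76 FPKM). Hsd11b2, the glucocorticoid-inactivating enzyme of these cells, was between 53.5 and 63.4 FPKM, and Scnn1b, another subunit of that channel, between 10.2 and 13.4 FPKM.

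Aqp3 and Aqp4 form the basolateral exit for water in the same cells. At ZT16, where Aqp2 was highest, both were below their mean over the libraries (log2 deviations -0.11 and -0.23). Aqp3 was at 71.0, 74.9, 78.6, 94.3, 69.9 and 68.2 FPKM from ZT0 to ZT20, so that the ZT12 library stood above the other 5, which lay close together. Its fitted amplitude was 0.18 ± 0.06 with a peak at ZT10.0 (limma adjusted p = 0.314), and without the ZT12 library the amplitude was 0.10 and the peak at ZT7.83. The coding transcript held 99.7% of the gene, and a retained intron line reached at most 0.537 FPKM. In the ZT16 and ZT20 libraries, where Aqp2 was highest in level, Aqp3 was lowest. Whether the waves of the 2 genes differ was not tested.

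Aqp4 was at 13.3, 7.15, 10.4, 17.3, 9.89 and 15.4 FPKM from ZT0 to ZT20, with high values at ZT12 and ZT20 and a low one between them. Its lowest value was at ZT4, as for Aqp2, and whether the waves of these 2 genes differ was not tested. A cosine took little of the spread of Aqp4 (share of variance 0.272, amplitude 0.29 ± 0.19, peak at ZT16.6 ± 2.54 h, limma adjusted p = 0.599). The fit rested on single libraries, since without ZT4 the amplitude was 0.06 (limma adjusted p = 0.963), without ZT16 it was 0.63 (adjusted p = 0.296), and without ZT12 the peak moved to ZT20.2. Aqp4 has an antisense gene in GENCODE that overlaps it over 7896 bases and was not analysed here. The libraries were strand-specific, but whether strand entered the authors' estimates is not given in the sources used here, so reads of the 2 genes may be mixed.

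**Figure D3:**
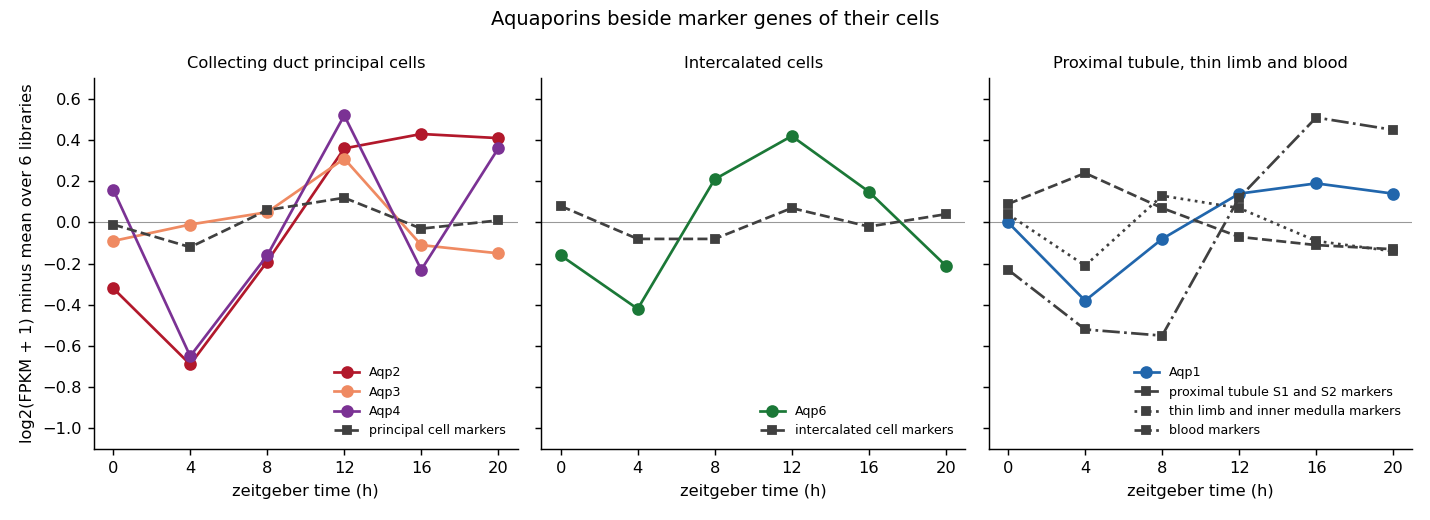
Deviation of log2(FPKM + 1) from the mean of the 6 libraries (vertical axis) against zeitgeber time in hours, for aquaporins (coloured circles) and for the median over marker genes of the named cell types (dark squares). Aqp2 spans -0.69 to 0.43 while the median of the principal cell markers lies between -0.12 and 0.12. The blood markers are high at ZT16 and ZT20, as Aqp1 and Aqp2 are.

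Aqp1 (chr6:55336432-55348555, forward strand, 4 exons) was at 287, 221, 272, 317, 329 and 318 FPKM from ZT0 to ZT20. As in Aqp2, the 3 libraries from ZT12 to ZT20 were above the 3 from ZT0 to ZT8, but the highest was 1.49 times the lowest. Its amplitude was 0.25 ± 0.06 with a peak at ZT16.4 ± 0.875 h (limma adjusted p = 0.175, unadjusted p = 0.0121). The labelled order of the libraries gave the closest cosine of the 60 circular orders (exact permutation p = 0.0167, the smallest these orders can give). Markers of the segments that carry AQP1 gave no single picture. The 8 proximal tubule markers of its first segments, S1 and S2, had median deviations of 0.09, 0.24 and 0.07 at ZT0, ZT4 and ZT8. At ZT12, ZT16 and ZT20 these medians were -0.07, -0.11 and -0.13, lower in the 3 libraries where Aqp1 was higher. Slc5a12, Slc22a6, Slc4a4 and Slc6a19 each split in this way. Slc34a1, Lrp2, Slc5a2 and Slc22a8 did not, and Slc22a8, an organic anion transporter, was highest at ZT12 (96.7 FPKM). The 6 markers of segment S3 had medians between -0.08 at ZT20 and 0.14 at ZT8. The 7 thin limb and inner medulla markers were lowest at ZT4 (-0.21), as Aqp1 was, and highest at ZT8 (0.13).

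Red cells and some endothelial cells also carry AQP1, and markers of both were high late in the series. All 6 blood markers were detected and summed to 192, 147, 146, 226, 332 and 316 FPKM from ZT0 to ZT20, and 2 of them passed over all genes (Hbb-bs and Hba-a1, limma adjusted p = 0.0326 and 0.0423). Neither passed with any one of the 6 times left out. Both also failed with no filter, without trend, by ordinary least squares and with only the most abundant transcript, and Hba-a1 failed with quantile normalization. With ZT0, ZT4, ZT8 or ZT12 left out, and with no filter, 0 of all genes tested passed. The 6 endothelial markers summed to between 39.3 FPKM at ZT8 and 74.4 FPKM at ZT20. Podocyte markers summed to 25.3 FPKM at ZT12, their lowest, and to 77.8 FPKM at ZT20, their highest. At ZT12 Aqp1 was at 96% of its highest level and the blood markers at 68% of theirs. These shares are on unlike scales, since the lowest and highest levels were 221 and 329 FPKM for Aqp1 and 146 and 332 FPKM for the blood markers. The part of blood or endothelium in the Aqp1 levels was not tested.

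The ZT4 library had the lowest level of 5 of the 7 genes tested (Aqp1, Aqp2, Aqp4, Aqp6 and Aqp7). How many of all genes tested were lowest at ZT4 was not counted. That library also had the highest share of FPKM from the mitochondrial genome, 28.6%, against 22.2% to 25.2% in the others. With the FPKM rescaled to leave those transcripts out, the amplitudes of Aqp2, Aqp1 and Aqp6 were 0.58, 0.24 and 0.34. Without the ZT4 library they were 0.52, 0.17 and 0.30, with unadjusted limma p under 0.05 for each. Of all 12720 genes tested without ZT4, 2468 had such a p.

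Aqp6, which resides in acid-secreting intercalated cells and conducts anions as well as water, lies 6.57 kb from Aqp5 in the cluster of Aqp2, Aqp5 and Aqp6 (chr15:99601400-99605477, forward strand, 5 exons). The gene was at 14.7, 12.1, 19.3, 22.5, 18.4 and 14.1 FPKM from ZT0 to ZT20. It was highest at ZT12, with ZT8 and ZT16 next to it, and thus earlier than its neighbour Aqp2 in its fitted peak (ZT12.4 ± 0.882 h, amplitude 0.36 ± 0.08). The wave did not pass over all genes (limma adjusted p = 0.175, unadjusted p = 0.0126), and 10 of the 60 circular orders, the labelled one included, gave as close a cosine or closer (exact permutation p = 0.167). Without the ZT12 library the unadjusted limma p was 0.089. The 10 intercalated cell markers had median deviations between -0.08 and 0.08 over the libraries, against -0.42 to 0.42 for Aqp6. A median over genes of unlike pattern varies less than single genes do. Slc4a1, also on the blood list, was at 11.5 FPKM at ZT4 and between 17.8 and 21.6 FPKM elsewhere. Atp6v1g3 was lowest at ZT4 (12.4 FPKM) and highest at ZT12 (19.2 FPKM), as Aqp6 was, and Hmx2 lowest at ZT8 (2.12 FPKM) and highest at ZT0 (3.77 FPKM). Of the same markers, Foxi1, the transcription factor that specifies these cells, was also highest at ZT12, while Slc26a4, the pendrin of type B cells, was highest at ZT4 (24.6 FPKM).

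Aqp5, known from salivary and lacrimal glands, was between 0 and 0.0523 FPKM and was listed at 0 at ZT0 and ZT12. Its neighbours on either side, Aqp2 and Aqp6, were among the expressed aquaporins. No fold is given for a gene at this level. One of its 2 lines held nearly all of the level at ZT16 and the other all of it at ZT20.

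Aqp8, a channel of liver, pancreas and gut that also passes ammonia and hydrogen peroxide, was low and lay under the filter. Summed over its 3 lines it was at 1.29, 0.598, 0.229, 0.0373, 0.256 and 0.641 FPKM from ZT0 to ZT20, stepping down to ZT12 and up again. A single coding line held 98.1% of the mean level, though at ZT12 the other coding line held 99.8%. With no filter on the mean FPKM the fit gave an amplitude of 0.51 ± 0.06 with a peak at ZT23.8 (limma adjusted p = 0.275 over 25013 genes, unadjusted p = 0.00111). Markers of exocrine pancreas were near 0: 3 of the 6 (Ctrb1, Pnlip and Amy2a5) were listed at 0 in all 6 libraries, Cpa1 and Prss2 reached at most 0.0114 and 0.059 FPKM, and Cela1 was between 14.9 and 19.5 FPKM throughout. The 4 liver markers summed to between 34.2 and 52.0 FPKM, of which Ttr (transthyretin) made up 31.2 to 50.1 FPKM, highest at ZT8, while Alb (serum albumin) was between 0.732 and 1.29 FPKM and Serpina1a reached 3.09 FPKM. Their part in the Aqp8 level was not tested.

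Aqp7 is the aquaglyceroporin of the brush border in the straight proximal tubule (segment S3) and of fat cells, where it releases glycerol. The gene lies at chr4:41033074-41048139 on the reverse strand, 44.58 kb from Aqp3. It was at 16.5, 15.9, 17.4, 18.4, 15.9 and 16.4 FPKM from ZT0 to ZT20, a ratio of 1.16 between the highest and the lowest library, and its amplitude of 0.07 ± 0.05 was smaller than that of most genes tested (limma adjusted p = 0.654). The 6-exon transcript held 95.7% of the gene. The 8-exon transcript, which starts further upstream and has a coding part of the same 909 bases, was at 0.512, 0.574, 1.07, 0.541, 0.287 and 0.391 FPKM. Its highest value was thus in the ZT8 library, where the sum of the gene was not highest.

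Fat markers were also highest at ZT8. Adipoq, which encodes adiponectin, reached 0.667 FPKM at ZT8, whereas the other 5 libraries had 0.0432 FPKM or less. Cfd (adipsin) was at 1.32 FPKM at ZT8 against at most 0.0553 FPKM elsewhere, Plin1 (perilipin) at 0.548 FPKM against at most 0.0144 FPKM, and Lep (leptin) at 0.135 FPKM against at most 0.0256 FPKM. Retn (resistin) was at 0.508 FPKM at ZT8 and listed at 0 in the other libraries. Fabp4, which endothelium also expresses, was between 41.9 and 57.1 FPKM, and the 6 markers together summed to between 42.0 and 60.2 FPKM. The part of fat in the ZT8 value of the 8-exon transcript was not tested. For the whole gene, the amplitude was 0.07 without the ZT8 library and 0.03 without the ZT12 library.

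**Figure D4:**
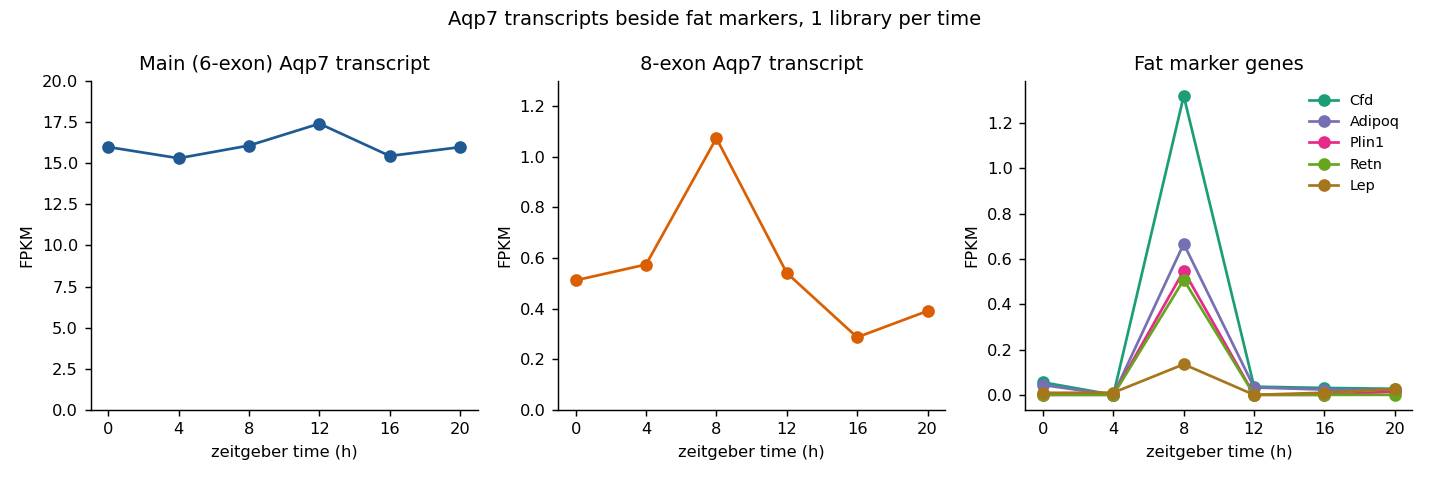
FPKM (vertical axes, linear, scaled per panel) against zeitgeber time in hours, 1 point per library, for the main transcript of Aqp7, for the 8-exon transcript and for 5 fat marker genes. The main transcript stays between 15.3 and 17.4 FPKM, and the 8-exon transcript and all 5 fat markers are highest at ZT8.

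Aqp11 encodes a divergent aquaporin of the endoplasmic reticulum in proximal tubule cells, and mice without it develop polycystic kidneys. It lies at chr7:97724006-97738289 on the reverse strand and has 5 transcript lines. Summed, it was at 23.6, 24.6, 27.3, 26.1, 22.1 and 23.7 FPKM from ZT0 to ZT20, within a ratio of 1.23, with an amplitude of 0.11 ± 0.05 (limma adjusted p = 0.388). Below this near level sum, the 2 main transcripts differed in pattern.

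The full transcript, ENSMUST00000206389, has 3 exons and 813 coding bases. The skipping transcript, ENSMUST00000084986, lacks the second of these exons (chr7:97728971-97729087, 117 bases, or 39 codons, all coding) and joins the first exon to the last. The 5′ end of the skipping transcript is annotated as incomplete. The junctions that tell them apart are shown as 15 bases on each side, with the downstream exon in capitals.
Aqp11 full transcript, exons 1 and 2: ttttggcctatgcagGAGGGAGCCTCACAG
Aqp11 full transcript, exons 2 and 3: ttgctccttctgtagGTGTGCTGATGATGA
Aqp11 skipping transcript, exons 1 and 2: ttttggcctatgcagGTGTGCTGATGATGA

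The skipping transcript was at 8.20, 11.6, 11.5, 9.69, 6.54 and 7.06 FPKM from ZT0 to ZT20, highest at ZT4 and ZT8 and lowest at ZT16 and ZT20. The fitted wave peaked at ZT6.52 ± 0.572 h (amplitude 0.40 ± 0.06, limma adjusted p = 0.192 over all transcripts, unadjusted p = 0.00219). The full transcript was at 15.4, 12.9, 15.5, 16.3, 15.5 and 16.6 FPKM, with its low value at ZT4 (amplitude 0.12 ± 0.06, peak ZT16.1, limma adjusted p = 0.566). Without ZT4 that amplitude was 0.04, and without ZT16 it was 0.18. The skipping transcript made up 47.0% of the gene at ZT4 and 29.5% at ZT16. The ratio of the skipping to the full transcript was 0.534, 0.901, 0.742, 0.594, 0.421 and 0.426. A cosine took 0.941 of the variance of its log2 value, and 4 of the 60 circular orders gave as much or more, the labelled one included (exact permutation p = 0.0667, a test chosen after the values were seen). Every base of the skipping transcript (896 in all) also lies in an exon of the full one (3737 bases), so their separate levels rest on the authors' split of shared reads, whose part in the ratio was not tested. The other 3 lines, 2 retained introns and a noncoding transcript, reached at most 0.316 FPKM.

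**Figure D5:**
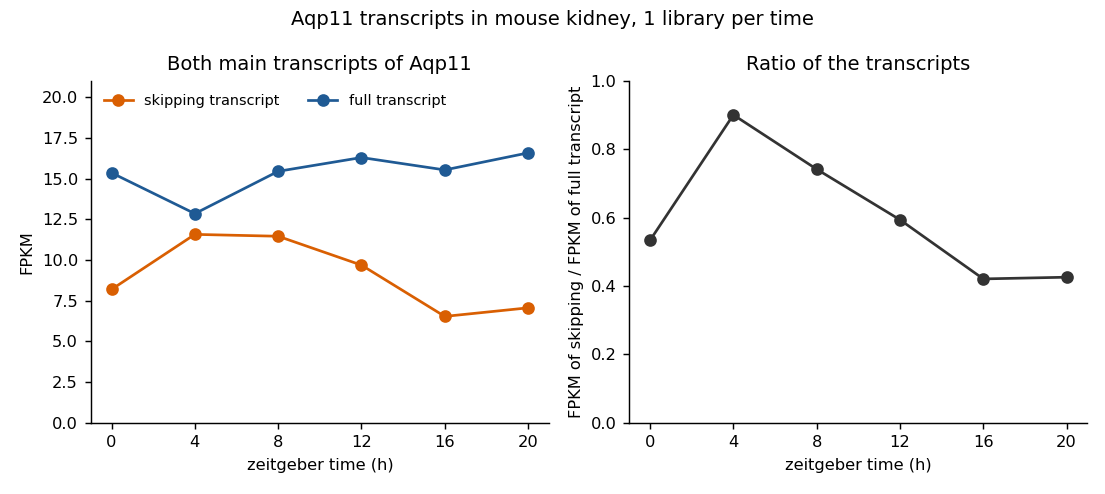
FPKM of both main Aqp11 transcripts (left) and the ratio of the skipping to the full one (right), on linear axes from 0, against zeitgeber time in hours, 1 point per library. The full transcript stays between 12.9 and 16.6 FPKM, and the ratio is highest at ZT4 (0.901) and lowest at ZT16 (0.421).

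Among 20 genes of vasopressin and cAMP signalling, 18 were tested, 6 (33.3%) had an unadjusted limma p under 0.05 and 0 an adjusted one, against 19.1% and 0.283% of all genes tested. Their median amplitude was 0.121, against 0.128 over all genes. Avpr2, the V2 receptor upstream of AQP2, was at 6.58, 6.15, 5.88, 7.71, 9.49 and 10.0 FPKM from ZT0 to ZT20, like Aqp2 higher in each library from ZT12 on than in any before (amplitude 0.36, peak at ZT17.5, limma adjusted p = 0.117). The anchoring proteins of protein kinase A with the smallest p were high at other times. Akap13 was highest at ZT8 (8.40 FPKM) and lowest at ZT16 (5.25 FPKM), Akap11 highest at ZT4 (19.1 FPKM) and lowest at ZT16 (11.8 FPKM), and Akap7, whose product anchors the kinase on AQP2 vesicles, was at 16.2, 16.6 and 16.4 FPKM at ZT4, ZT8 and ZT12 and at 8.55 and 9.52 FPKM at ZT16 and ZT20. Their limma adjusted p lay between 0.137 and 0.186.

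Trafficking and turnover genes of AQP2 had 28 genes tested, of which 3 (10.7%, against 19.1% of all genes) had an unadjusted limma p under 0.05 and 0 an adjusted one (median amplitude 0.085). Anxa2, a membrane-binding annexin, was between 11.9 FPKM at ZT4 and 20.5 FPKM at ZT20 (limma adjusted p = 0.104). Sipa1l1, a GTPase-activating protein for Rap, was between 16.5 and 24.2 FPKM, Cav1, the caveolin of endothelium, between 15.5 and 23.8 FPKM, and Myo5b, the motor of recycling vesicles, between 27.3 and 33.8 FPKM.

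Of 22 transcription factors tested that are linked to Aqp2 or to principal cells, 7 (31.8%) had an unadjusted limma p under 0.05 and 1 an adjusted one, against 19.1% and 0.283% of all genes. That gene was Ppard, a nuclear receptor for fatty acids, whose level was 18.4, 10.2, 4.19, 4.21, 6.42 and 20.3 FPKM from ZT0 to ZT20 (adjusted p = 0.0326). It failed to pass without ZT0, ZT4, ZT8, ZT12 or ZT20 (adjusted p between 0.073 and 0.135) and passed without ZT16. Ppard also failed with only the most abundant transcript (limma adjusted p = 0.0507), without trend (0.0576), with no filter (0.197) and by ordinary least squares (0.311). Without ZT0, ZT4, ZT8 or ZT12, and with no filter, 0 of all genes tested passed. Jun, a subunit of AP-1, was at 9.79, 7.61, 10.5, 13.6, 13.3 and 13.3 FPKM from ZT0 to ZT20 (adjusted p = 0.127). Ehf and Elf3, ETS factors of epithelia, were highest at ZT12 (13.2 FPKM) and ZT16 (11.4 FPKM), with adjusted p of 0.104 and 0.159 (limma).

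In the glycerol list 9 genes were tested, of which 2 (22.2%, near the 19.1% of all genes) had an unadjusted limma p under 0.05 and 0 an adjusted one. Gpd2, the mitochondrial glycerol phosphate dehydrogenase, had its highest level at ZT4 (19.9 FPKM) and its lowest at ZT20 (11.5 FPKM), and Pnpla2, the lipase that starts triglyceride breakdown, had its own at ZT8 (49.1 FPKM) and ZT16 (30.5 FPKM). Agpat2 and Mgll, a lipid synthesis enzyme and a lipase, had limma adjusted p of 0.336 and 0.504. Among 11 tested genes of urinary concentration other than aquaporins, 4 (36.4%) had an unadjusted limma p under 0.05 and 1 an adjusted one, against 19.1% and 0.283% of all genes. Slc5a3, the myo-inositol transporter by which medullary cells take up an osmolyte, was at 22.0, 21.5, 26.1, 36.8, 48.7 and 35.2 FPKM from ZT0 to ZT20 (amplitude 0.58, peak at ZT15.4, adjusted p = 0.0485). It did not pass with any one time left out. Nor did it pass with median-of-ratios size factors (limma adjusted p = 0.0572), quantile normalization (0.055) or limma without trend (0.0832). The limma adjusted p was 0.068 with only the most abundant transcript and 0.217 with no filter, and the adjusted p was 0.311 by ordinary least squares. As for Ppard, 0 of all genes tested passed without ZT0, ZT4, ZT8 or ZT12 and with no filter. Slc6a12, the betaine transporter, was between 1.39 FPKM at ZT0 and 6.25 FPKM at ZT16, and the urea channel gene Slc14a1 and the potassium channel gene Kcnj1 were both highest at ZT12, with 2.79 and 105 FPKM.

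The genes most like each aquaporin were sought among 7964 named genes averaging 5 FPKM or more, by Pearson's r of log2(FPKM + 1) over the 6 libraries, as a description in which all points share their library. For Aqp2 these were Jun (r = 0.99), Fam120b (0.986) and Ythdf1 (0.985), and for Aqp1 Clec2d (0.989), Nccrp1 (0.989) and Eef1d (0.986). Aqp6 was most like Erh (0.993), Esrrb (0.982) and Lsm6 (0.982), of which Esrrb, an orphan nuclear receptor, was highest at ZT12 (10.2 FPKM) and lowest at ZT4 (5.52 FPKM). Aqp3 was nearest to Trp53bp2 (0.994), Zhx3 (0.978) and Usp53 (0.972), and Aqp4 to Mfsd4a (0.993), AI661453 (0.978) and Selenom (0.968). Mfsd4a shared the low ZT16 value of Aqp4, with 30.2, 24.3 and 28.6 FPKM at ZT12, ZT16 and ZT20. Aqp7 was nearest to Gzf1 (0.989), Mal (0.971) and Lrrc31 (0.97), and Aqp11 to Taf1d (0.989), Rita1 (0.981) and Klf13 (0.979). No p is given for these values.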

How the data were processed

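Per the labels' protocols, RNA came from frozen kidneys by Trizol and a spin kit, and the SureSelect libraries were strand-specific. What the authors deposited is an FPKM table by Ensembl transcript and library that also lists transcript length, per the file headers. Per the submitters' processing notes, bcl2fastq 2.20 was used, and mm9 is the build named. How reads were aligned and FPKM estimated is not given in the sources used here. Of 127971 transcripts matched to GENCODE M21, 98.62% lay inside the table's locus on GRCm38, so GENCODE positions are given although the notes name mm9. FPKM hold no counts, and whole reads were not recovered (99.9% or more of the lowest products of FPKM and length were distinct), so depth is unknown and no counting interval is given.

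FPKM were summed per symbol. To log2(FPKM + 1), limma 3.58.1 (R 4.3.3) fitted a cosine and a sine of 24 h (eBayes with trend, 3 residual degrees of freedom), with Benjamini-Hochberg adjustment over all genes, or all transcript lines, averaging 1 FPKM or more (threshold 0.05). Log2 values understate changes of low genes. The limma p-values set the size of the fitted wave against the scatter of single libraries around it. That scatter is moderated across all genes or lines tested, except by ordinary least squares. The members and gene lists were chosen with earlier results of these data known. Named are all 9 members, up to 4 genes of smallest limma p per list, the 3 nearest patterns per member, and markers; marker genes named singly were picked after their values were seen. Gyk, an older symbol of Gk, was not used. Figures were made with Python 3.11.15 and matplotlib 3.10.9.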

Additional observations from a re-analysis of the deposited data

How the results depend on the processing

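With 1 library per time, each omitted library is a whole time. The number of aquaporin genes at adjusted limma p under 0.05 was 0 in all alternatives run except robust moderation, where it was 1 (Aqp2). At unadjusted p it was 1 of 7 by ordinary least squares in place of 3, 4 of 9 with no filter, and between 2 and 4 of 7 with a time left out. Over all genes these settings gave 1661 of 12709, 3170 of 25013, and 1154 to 2468. The unadjusted count of aquaporin transcripts was 2 of 8 by ordinary least squares and 7 of 18 with no filter, in place of 4 of 8. With a time left out it was between 3 and 5 of 8. Over all transcripts these settings gave 2464 of 21596, 6004 of 78040, and 1787 to 3352. The adjusted count of aquaporin transcripts was 0 throughout. Over all genes the 36 adjusted calls became 0 with no filter, 7 without trend, 66 with robust moderation, 2 by ordinary least squares, 2 with the most abundant transcript and 0 to 4 with a time left out. The 2428 genes at unadjusted p became 1154 without ZT20, and the 3277 transcripts 1787 without ZT20 and 6004 with no filter, where more lines are tested. By ordinary least squares 2 transcripts passed the adjusted threshold in place of 0.

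Of 232 refits of single genes and transcripts, 229 kept their side of the adjusted threshold and their peak within 6 h. No main fit of an aquaporin had passed, and in many settings no gene or transcript passed at all, so the side kept shows little. The amplitude of Aqp4, counted as kept, lay between 0.06 and 0.63. Aqp2 passed with robust moderation (amplitude 0.59). The peak of Aqp11 moved by over 6 h with its most abundant transcript alone (amplitude 0.12, ZT16.1), which leaves out the skipping transcript by construction. The peak of the main Aqp7 transcript did so without ZT12 (the cause was not tested), and its amplitude was between 0.01 and 0.08 with a time left out. The amplitude of Aqp2 stayed between 0.52 and 0.69 over its alternatives, that of Aqp1 between 0.17 and 0.29 and that of Aqp6 between 0.30 and 0.49. No paired analysis was possible because each time has 1 library and the labels give no replicate numbers. Depth is unknown, which limits what the low values of Aqp5 and Aqp8 can show.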

Other observations

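Other members of the aquaporin family were at or near 0 in these kidneys. Mip, the water channel of the eye lens, was listed at 0 in all 6 libraries. Aqp9, the glycerol channel of liver, reached at most 0.0538 FPKM over its 10 lines, and Aqp12, known from exocrine pancreas, was at 0.0589 FPKM at ZT20 and listed at 0 elsewhere.

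Over the 6 libraries, Pearson's r between pairs of the 7 aquaporins tested lay between -0.32 (Aqp1 and Aqp11) and 0.94 (Aqp1 and Aqp2). It was 0.09 between Aqp2 and Aqp3, 0.66 between Aqp2 and Aqp4, and 0.88 between Aqp3 and Aqp7, the neighbours on chromosome 4. These values are a description of 6 points that share their libraries.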
